A study of Mus musculus with 6 samples.

Results

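Cycling cells of the mouse mitral valve were taken as cells that held transcripts of at least 2 of the 3 proliferation genes Mki67, Top2a and Cenpf, with at least 2 UMIs (unique molecular identifiers, each standing for 1 captured transcript) over the 3 genes together. Of 53526 cells with at least 300 genes detected and at most 10% mitochondrial UMIs, 402 met this rule, which was 0.751% of the cells. They were split into 108 fibroblasts, in which Dcn, Col1a1 and Col1a2 gave at least 1% of all UMIs, 128 leukocytes, which were cells below that level with at least 1 UMI of Ptprc (CD45), and 166 others.

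The cells came from 6 droplet libraries of digested mitral valves, sorted for live single cells after red cell lysis. There was 1 library for each of 2 genotypes at each of 3 ages: K/B.g7 at 3, 8 and 25 weeks, labelled inflamed, and B.g7 at 3, 8 and 25 weeks, labelled control. K/B.g7 mice carry the KRN T cell receptor transgene together with the g7 allele of the MHC class II region and develop autoantibody-driven arthritis and inflammation of the heart valves, whereas B.g7 mice have the g7 allele without the transgene. The transgenic receptor is present in the T cells of the whole animal and not in the valve alone. The number of mice in a library is not given in the sources used here. Each p-value of a share therefore measures the spread between these 6 libraries. Those of gene levels from edgeR rest also on variance shared over genes.

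Cells that divide pass through S phase, in which DNA is copied by the replication machinery (the MCM helicase, Pcna, Rrm2, Tyms), and through G2 and mitosis, in which cyclin B with Cdk1 drives entry and the anaphase-promoting complex with Cdc20 and Ube2c drives exit. Mki67 coats mitotic chromosomes, Top2a untangles DNA and Cenpf binds the kinetochore, and all 3 peak in G2 and mitosis, so the rule favours that stage over early S phase and G1. Valve interstitial fibroblasts and endothelium proliferate in the growing postnatal valve and are largely quiescent in adults. T cell precursors of the thymus divide rapidly around the rearrangement of their receptor genes, in which Rag1, Rag2, Dntt (terminal transferase) and Ptcra (pre-T cell receptor alpha) act.

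Genes of this stage share short promoter elements, the CHR (cell cycle genes homology region) and CCAAT boxes, which are read by the DREAM and MuvB complexes and by NF-Y. The 100 bases before the RefSeq start are shown for 4 genes of this class, the rule's Mki67 and Top2a and the G2 and M genes Cdk1 and Kif11. Capitals mark TTTGAA or TTCGAA, the core letters of CHR elements, and CCAAT, each on either strand, so that TTCAAA and ATTGG are matches on the opposite strand. The sequences are from RefSeq promoter windows on GRCm38.p6.
Mki67 (chr7:135716380-135716479, minus strand): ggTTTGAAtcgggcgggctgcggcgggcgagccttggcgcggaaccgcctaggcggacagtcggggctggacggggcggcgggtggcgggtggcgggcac
Top2a (chr11:99024190-99024289, minus strand): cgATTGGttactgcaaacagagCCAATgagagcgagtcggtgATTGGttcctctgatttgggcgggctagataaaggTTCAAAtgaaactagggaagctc
Cdk1 (chr10:69352913-69353012, minus strand): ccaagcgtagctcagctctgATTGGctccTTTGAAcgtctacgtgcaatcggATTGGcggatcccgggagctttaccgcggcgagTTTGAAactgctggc
Kif11 (chr19:37376282-37376381, plus strand): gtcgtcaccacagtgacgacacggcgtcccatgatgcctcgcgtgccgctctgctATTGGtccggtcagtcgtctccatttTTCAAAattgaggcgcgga

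Within 250 bases before the start, TTTGAA or TTCGAA was found in 11 of 26 other G2 and M genes with a promoter window and in 19.6% of all 27025 genes with one. At least 2 CCAAT matches were found in 14 of these 26 genes and in 11.5% of all genes, and both kinds of match in 7 of 26 genes and in 2.01% of all genes. Of the 3 genes of the rule, all had at least 2 CCAAT matches and 2 had TTTGAA or TTCGAA. Of the S phase genes, 4 of 25 with a window had TTTGAA or TTCGAA and 8 of 25 had at least 2 CCAAT matches. The 4 stretches shown above all hold TTTGAA on 1 of the strands, in Mki67 at 98 bases before the start. Most stretches of the other genes of this class hold 0 matches of TTTGAA or TTCGAA, such as those of Cenpf, Birc5, Ccnb1 and Ccnb2. Each match is a description of the letters and not a bound site.

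The label of the cells was checked on genes that the rule did not use, with values given as a description because the cells were chosen on genes that rise together with these. The list of 32 other G2 and M genes gave 78.7 UMIs per 10000 UMIs in cycling cells and 0.870 in the remaining 53124 cells. The 30 S phase and replication genes gave 27.1 and 2.79. At least 3 of the other G2 and M genes were detected in 387 of the 402 cycling cells (96.3%) and in 0.968% of the remaining cells. Mki67 (chromosome 7, 135689784 to 135716361) was seen in 370 of the cells, Top2a (chromosome 11, 98992943 to 99024189) in 358 and Cenpf (chromosome 1, 189640606 to 189688086) in 330, and all 3 in 254, with a median of 10 UMIs over the 3 genes.

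The values changed stepwise around the rule's threshold. The 30 cycling cells just inside it, with 2 UMIs, held 19.9 UMIs of the other G2 and M genes per 10000. The 97 cells just outside it, with 2 or more UMIs of 1 of the 3 genes, held 9.27, and 550 cells with 1 UMI held 2.25. The 52477 cells with no UMI of the 3 genes held 0.815. Cells just outside thus include some with mitotic transcripts, and at least 3 of the other G2 and M genes were seen in 53.6% of the 97.

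**Figure D1:**
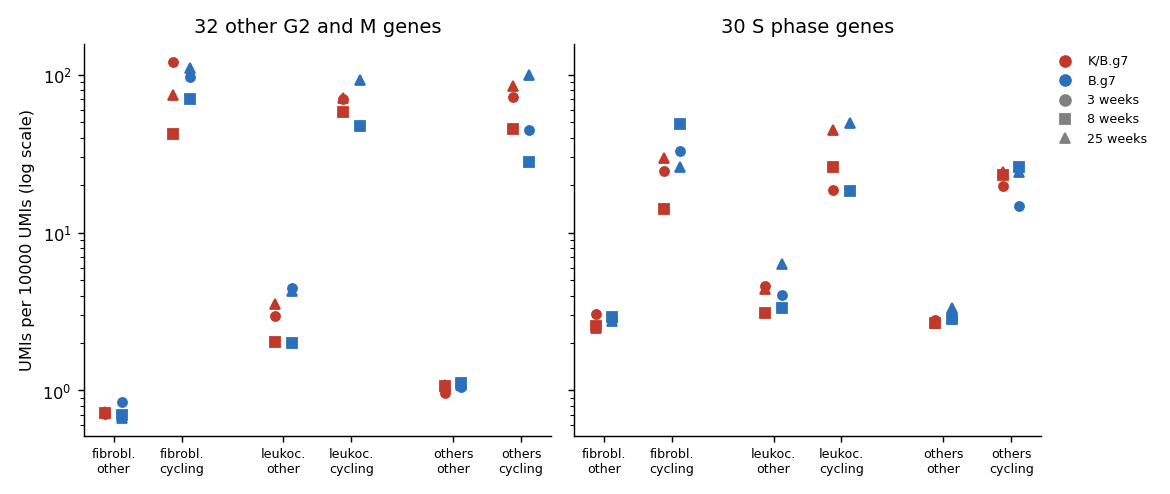
UMIs of the 32 other G2 and M genes (left) and of 30 S phase genes (right) per 10000 UMIs on a log axis, in cycling and other cells of each kind, with 1 point for each library (colour for genotype, shape for age). Wherever a library held cycling cells of a kind, they lay above the other cells of the same kind in both lists, from 28.1 to 121 against 0.670 to 4.43 for the G2 and M genes.

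In the libraries, 3774 to 20151 cells passed the filter, with medians of 2975 to 5703 UMIs, and cycling cells were deeper, with medians of 4784 to 9858 UMIs. Because the rule counts UMIs, shares were also taken after each cell was thinned to 2000 UMIs, leaving out shallower cells (303 to 2127 fibroblasts and 21 to 322 leukocytes a library). Predicted doublets, marked by the highest Scrublet scores, were 67 of the 402 cycling cells and 38 of 91 (41.8%) in K/B.g7 at 25 weeks, where they were 16.1% of all cells. Of the cycling cells, 7 shared their barcode with a cell of another library and 0 with a cycling cell of another library. Cells with Xist and no Ddx3y UMI, and the reverse, differed between libraries. In K/B.g7 they were 2891 and 889 (61 and 15 cycling), 5018 and 1197 (32 and 7) and 4318 and 4638 (58 and 13) at 3, 8 and 25 weeks. In B.g7 they were 1293 and 605 (12 and 23), 4847 and 142 (10 and 2) and 5142 and 1439 (81 and 5). Sex was in no model. The 46 barcodes in which hemoglobin made up at least 50% of UMIs held 3 UMIs of the rule's genes among 152514, and 0 of them met the rule. Of these barcodes, 37 were from K/B.g7 at 8 weeks, and they held all 3 UMIs, among 126331. Per UMI this was not below the level of all cells of that library, so it does not show that free RNA was low. B.g7 at 3 and 8 weeks had 0 such barcodes and each remaining library 2 to 4, so free RNA was not tested there.

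Among all cells, cycling cells were most frequent at 3 weeks. In K/B.g7 they were 96 of 5727 cells (1.68%), 45 of 9318 (0.483%) and 91 of 20151 (0.452%) at 3, 8 and 25 weeks. In B.g7 they were 57 of 3774 (1.51%), 22 of 5771 (0.381%) and 91 of 8785 (1.04%). Both 3-week libraries lay above the 4 later ones. At 2000 UMIs a cell the share was 1.03 ± 0.115% (SD, n = 2) at 3 weeks and 0.392 ± 0.283% (SD, n = 4) at 8 and 25 weeks, which differed by 0.639 percentage points (two-sided exact permutation p = 0.133, the smallest p that 2 against 4 libraries allow). Between genotypes the thinned shares were 0.587 ± 0.458% for K/B.g7 against 0.623 ± 0.434% for B.g7 (SD, n = 3 each), and they overlapped (two-sided exact permutation p = 1.0, where 0.10 is the smallest possible). Without the age term a genotype difference has to exceed the spread between ages, and at 3 against 3 libraries no difference could pass 0.05.

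Of the 3 kinds, fibroblasts had the largest fold between ages, while the others had the larger difference in percentage points (1.59 against 0.690 after thinning). Of fibroblasts, 53 of 4208 (1.26%, exact binomial 95% interval 0.945 to 1.64%) were cycling in K/B.g7 at 3 weeks, 3 of 6356 (0.0472%, 0.00973 to 0.138%) at 8 weeks and 14 of 14532 (0.0963%, 0.0527 to 0.162%) at 25 weeks. In B.g7 they were 23 of 2914 (0.789%, 0.501 to 1.18%), 5 of 3264 (0.153%, 0.0498 to 0.357%) and 10 of 6272 (0.159%, 0.0765 to 0.293%). The intervals cover counting error alone. At 2000 UMIs a cell the shares were 0.933, 0.0177 and 0.0403% in K/B.g7 and 0.519, 0 and 0.0838% in B.g7. The 0 of 2755 cells of B.g7 at 8 weeks allows a share of up to 0.109% by the limit of 3 counts of the total. The 5 cycling fibroblasts of that library had a median of 687 UMIs, so most were too shallow and were left out. The 0 and its limit hold for the deeper cells alone, and this 0 enters the mean of the later shares. The 3-week shares averaged 0.726 ± 0.293% (SD, n = 2) and the later ones 0.0354 ± 0.0362% (SD, n = 4), a 20.5-fold difference without overlap between the ages (exact permutation test, two-sided, p = 0.133, adjusted to 0.178 over the 4 kinds compared). With all UMIs the ratio was 8.98. At 3 weeks the 2 libraries differed by genotype (K/B.g7 at 0.933%, B.g7 at 0.519%), and their binomial intervals overlapped (0.654 to 1.29% and 0.277 to 0.886%). Over the 3 ages the genotypes did not separate (0.330 ± 0.522% and 0.201 ± 0.279%, SD, n = 3 each, exact permutation p = 0.80).

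Among the 3 kinds, leukocytes held the highest cycling share in every library except B.g7 at 3 weeks, where they held the lowest. They were 7 of 76 (9.21%), 28 of 622 (4.50%) and 38 of 519 (7.32%) for K/B.g7 at 3, 8 and 25 weeks. For B.g7 they were 0 of 43, 7 of 243 (2.88%) and 48 of 470 (10.2%). The 0 of 43 cells allows a share of up to 6.98% by the same limit. Thinned shares were 7.50, 2.96 and 14.2% in K/B.g7 and 0, 1.84 and 12% in B.g7. In thinned cells K/B.g7 was the higher library at each age, but with all UMIs B.g7 was the higher one at 25 weeks, where thinning left out 322 of 519 leukocytes of K/B.g7. The thinned means of 8.23 ± 5.66% and 4.60 ± 6.44% (SD, n = 3 each) differed by less than the spread between ages (exact permutation test, two-sided, p = 0.50).

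In the remaining cells, 36 of 1443 (2.49%), 14 of 2340 (0.598%) and 39 of 5100 (0.765%) were cycling in K/B.g7, and 34 of 817 (4.16%), 10 of 2264 (0.442%) and 33 of 2043 (1.62%) in B.g7. Thinned shares averaged 2.27 ± 1.09% (SD, n = 2) at 3 weeks and 0.680 ± 0.601% (SD, n = 4) later (exact permutation p = 0.133). The 2 ages did not overlap, with 1.5 and 3.04% against 0.124 to 1.48%. The gap between 1.5 and 1.48% is far smaller than the binomial interval of either library.

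**Figure D2:**
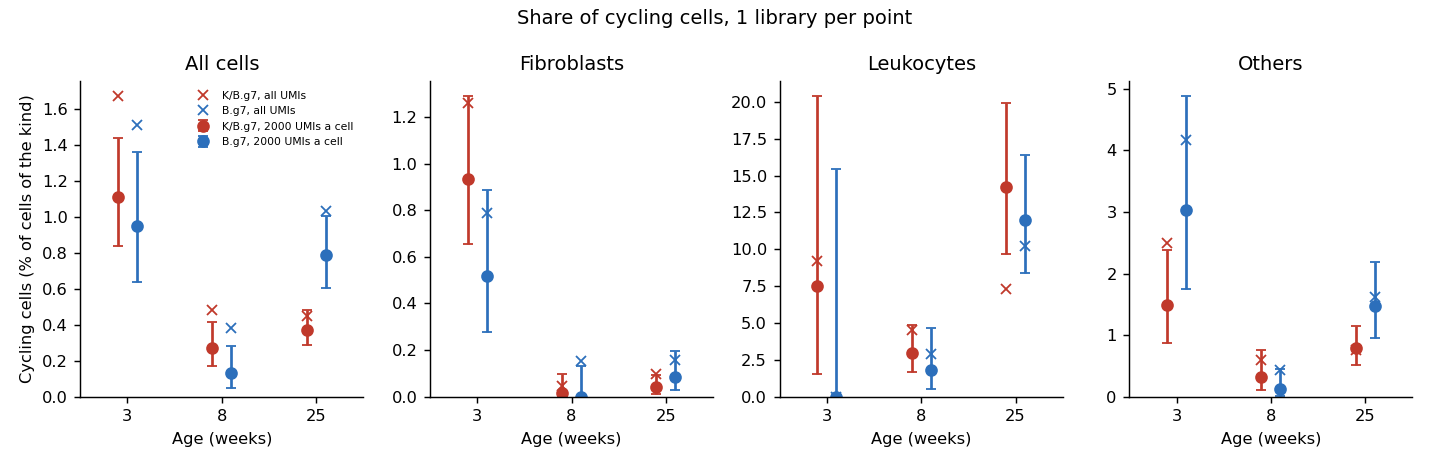
Share of cycling cells in percent of all cells, fibroblasts, leukocytes and other cells by age, 1 library for each point. Circles with exact binomial 95% intervals are shares after thinning to 2000 UMIs a cell, crosses are shares with all UMIs, red is K/B.g7 and blue is B.g7. In fibroblasts both 3-week points stand above the later ones, and in leukocytes the 25-week points reach 14.2 and 12%.

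The make-up of the cycling cells changed with age. At 3 weeks fibroblasts were 55.2% (K/B.g7) and 40.4% (B.g7) of cycling cells, and 6.67 to 22.7% in the 4 later libraries. The means of 47.8 ± 10.5% (SD, n = 2) and 13.9 ± 6.85% (SD, n = 4) did not overlap (exact permutation test, two-sided, p = 0.133, the smallest possible). Leukocytes were 7.29, 62.2 and 41.8% of cycling cells in K/B.g7 and 0, 31.8 and 52.7% in B.g7. These are cells with a Ptprc UMI, and 27 of the 121 cycling cells led by T lineage genes had none and are counted with the others, with 17 (K/B.g7) and 9 (B.g7) of them at 25 weeks. The genotypes overlapped, with means of 37.1 ± 27.8% and 28.2 ± 26.6% (SD, n = 3 each, exact permutation p = 0.700).

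Cells outside the fibroblasts were placed by the marker list of which they detected most genes, with at least 3. Of these 294 cycling cells, 121 were led by T lineage genes, 59 by endothelial, 24 by macrophage, 13 by mesothelial, 9 by mural or smooth muscle, 5 by dendritic, 3 by B lineage and 2 by red cell genes. Lists with no cycling cell were glial (0 of 540 cells), NK or innate lymphoid (0 of 198), monocyte or neutrophil (0 of 106), melanocyte (0 of 64), cardiomyocyte (0 of 22) and mast cell (0 of 11). A count of 0 sets a limit at this number of cells and does not show an absence. No list led in 56 cycling cells and lists were tied in 2. The fibroblast level is a range and not a sharp boundary: 69 of the 166 cycling others had 0.5 to 1% of UMIs from the 3 fibroblast genes and 57 of the 108 cycling fibroblasts had 1 to 1.5%. Of the 51 cycling others led by no list, 42 were in that 0.5 to 1% range.

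**Figure D3:**
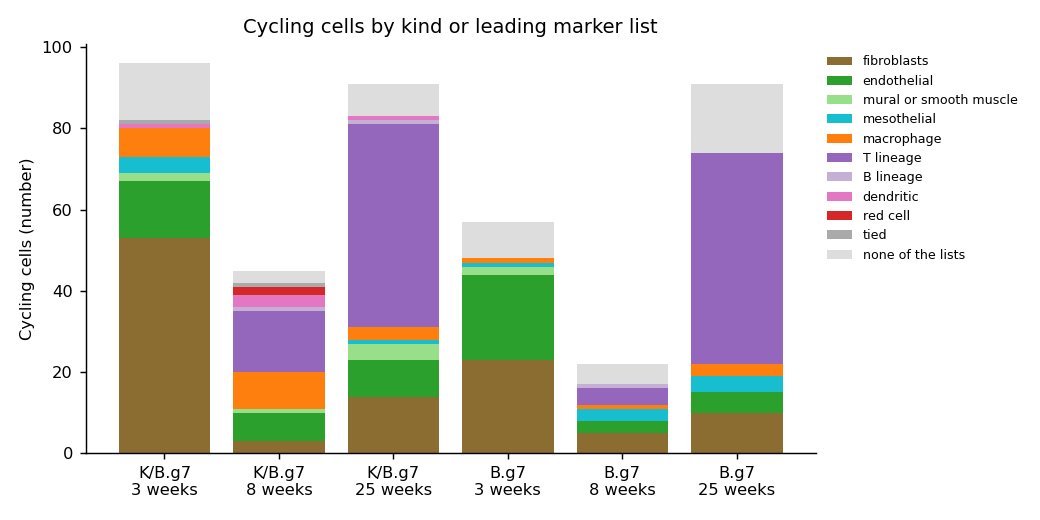
Number of cycling cells in each library, stacked by fibroblasts and, for the other cells, by the leading marker list. Fibroblasts and endothelial cells make up most of the 96 and 57 cycling cells at 3 weeks, and T lineage cells 50 and 52 of 91 in each library at 25 weeks.

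Cycling fibroblasts of the 3-week valve were set beside the other fibroblasts of the same libraries, 53 against 4155 cells in K/B.g7 and 23 against 2891 in B.g7. Values are summed counts scaled to a common total of UMIs (CPM) and log2 ratios with 10 CPM added, given with no test since the cells were chosen on co-expressed genes. Of 3614 genes at 50 CPM or more, 9.10% were over 1 on the log2 scale in both libraries and 1.49% were under -1, and nothing is read from the members' counts against these. Ube2c, the ubiquitin-conjugating enzyme of the anaphase-promoting complex, was at 1859 and 971 CPM in cycling and 1.4 and 1.7 CPM in other fibroblasts of K/B.g7 and B.g7. Birc5 (survivin, of the chromosomal passenger complex) was at 860 and 700 against 1.7 CPM in each library. Cdk1 was at 599 and 390 CPM and Cdc20 at 633 and 522 CPM, all against 0.8 to 1.9 CPM. In both libraries all 32 other G2 and M genes were higher by over 1 on the log2 scale, with a median ratio of 4.51.

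Replication genes were higher as well, by less. Rrm2, the small subunit of ribonucleotide reductase, was at 162 and 330 CPM in cycling and 4.9 and 5.0 CPM in other fibroblasts of K/B.g7 and B.g7. Tyms (thymidylate synthase) was at 326 and 370 against 23.7 and 23.5 CPM. Of the 30 S phase genes, 27 were over 1 on the log2 scale in both libraries, with a median of 2.29, as were 19 of 20 chromatin, histone and tubulin genes, with a median of 2.76. Stmn1 (stathmin, a microtubule destabiliser) was at 2765 and 2127 against 36.9 and 22.9 CPM.

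The G1 genes were mostly higher, with exceptions. Ccnd2 (cyclin D2) was at 62.8 and 19.8 CPM in cycling and 114 and 107 CPM in other fibroblasts, while Cdk4, its kinase partner, was at 188 and 284 against 133 and 123 CPM. Of the 17 G1 cyclin and E2F genes, 12 were higher in both libraries (beside 43.5% of all genes at 50 CPM or more). The 2 sets are unlike, since list members are counted at any level and 6 of the 17 reach 50 CPM. Among the 12 was Foxm1, the activator of mitotic genes, at 41.1 and 66.1 against 0.53 and 0.49 CPM. The 14 CDK inhibitor and arrest genes were split, with 4 higher and 7 lower in both libraries. Cdkn2c (p18) was at 384 and 258 CPM against 17.4 and 25.8, and Cdkn2d (p19) at 418 and 317 against 43.1 and 37.4. Cdkn1a (p21), which arrests cells after DNA damage, was at 474 and 383 against 318 and 269 CPM. Btg2, an antiproliferative gene, was at 522 and 383 against 917 and 752 CPM.

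Matrix and fibroblast state genes were mostly lower in the cycling fibroblasts, and 33.9% of all genes at 50 CPM or more were lower in both libraries. Of 16 proteoglycan and valve matrix genes 9 were lower in both libraries, with a median ratio of -0.72. Of 20 fibroblast state markers 16 were lower in both, with a median of -0.56. These members are counted at any level, and 12 of the 16 and 16 of the 20 reach 50 CPM. Ogn (osteoglycin) was at 96.7 and 244 CPM in cycling and 529 and 635 CPM in other fibroblasts of K/B.g7 and B.g7. Gsn (gelsolin) was at 5680 and 8213 against 17619 and 20711 CPM, and Mgp (matrix Gla protein, an inhibitor of calcification) at 3618 and 3832 against 7829 and 8830 CPM. Col2a1, the cartilage collagen, had 0 UMIs in the cycling fibroblasts of both libraries, against 105 and 31.1 CPM in other fibroblasts. Cytl1, a cytokine of chondrocytes, was at 196 and 0 against 549 and 175 CPM.

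Major collagens differed less. Col3a1 was at 7976 and 5087 CPM in cycling and 8783 and 7199 CPM in other fibroblasts. Sparc, a collagen-binding glycoprotein, was higher in K/B.g7 (15517 against 13947 CPM) and lower in B.g7 (10512 against 11398 CPM). Eln (elastin) was also split, at 2826 against 2121 CPM in K/B.g7 and 390 against 894 CPM in B.g7. Of 20 collagen and fibrillar matrix genes, 11 were lower in both libraries and 0 higher. Of 18 growth factor receptor and mitogen response genes, 13 were lower in both, among them Fos at 2753 and 2220 against 4538 and 3296 CPM. Shares of UMIs sum to a fixed total, so the higher cell cycle genes take some of it from other genes. Over all 3614 genes at 50 CPM or more the median log2 ratio was 0.07, and the part of the fixed total in the lower values was not tested.

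The age difference within cycling fibroblasts could be fitted for 4 libraries, since 10 or more of them were present at 3 and 25 weeks in both genotypes (53, 14, 23 and 10 cells). At 25 weeks against 3 weeks, 28 of 2392 genes rose (1.17%) and 10 fell (0.418%) by edgeR's quasi-likelihood F test (FDR 0.05). Genotype was in the model, which left 1 residual degree of freedom. FDR values here and in the genotype fits of the same libraries thus rest mostly on variance shared over genes. They do not measure the spread of a single gene between libraries. The matrix genes Eln, Sparc and Cthrc1, the growth genes Igf1 and Gpc3 and the chemokine genes Ccl2 and Cxcl1 were among those that fell. Predicted doublets were 12 of 14 cycling fibroblasts of K/B.g7 and 3 of 10 of B.g7 at 25 weeks, against 4 of 53 and 3 of 23 at 3 weeks. Without predicted doublets, 0 genes passed (68 of 1851 at an unadjusted p under 0.05), and with DESeq2 9 rose and 3 fell.

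Eln (chromosome 5, 134702593 to 134747323), which encodes elastin, was at 2826 and 390 CPM in cycling fibroblasts of K/B.g7 and B.g7 at 3 weeks and at 107 and 98.8 CPM at 25 weeks. Both later libraries lay below both early ones. The fitted log2 fold change was -3.33 ± 0.54 (SE, edgeR FDR = 2.07e-06). The other fibroblasts showed the same order, at 2121 and 894 CPM at 3 weeks and 272 and 256 CPM at 25 weeks. Rbp4 (retinol binding protein) was at 846 and 159 CPM at 3 weeks and 53.6 and 26.9 CPM at 25 weeks (-3.32 ± 0.61, edgeR FDR = 3.18e-05). Sparc was at 15517 and 10512 CPM and then at 2390 and 3600 CPM (-2.02 ± 0.51, edgeR FDR = 0.00841). Sparc was seen in all 53, 23, 14 and 10 cells, and the cell with most held 6.57, 9.37, 13 and 27.4% of the UMIs of its group.

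Igf1, the insulin-like growth factor, fell from 904 and 449 CPM to 193 and 117 CPM (-1.99 ± 0.48, edgeR FDR = 0.00418). Gpc3 (glypican 3, a heparan sulfate proteoglycan that binds growth factors) was at 196 and 119 CPM at 3 weeks and 42.9 and 18.0 CPM at 25 weeks (-2.26 ± 0.67, edgeR FDR = 0.0462). The 25-week Gpc3 counts were 4 UMIs of 1 cell and 2 UMIs. Cthrc1, a secreted collagen triple helix protein of remodelling matrix, had 53 and 12 UMIs at 3 weeks and 0 in both 25-week groups, so its fitted change is not printed. Of the 17 collagen and fibrillar matrix genes tested 2 fell and 0 rose, with a median log2 fold change of -0.37 beside -0.01 over all genes tested. Of 10 proteoglycan and valve matrix genes tested 0 passed, with a median of 0.135. Of 3 imprinted and postnatal growth genes tested 2 fell. Of 3 inflammatory and chemokine genes tested 2 fell, Ccl2 (-2.40 ± 0.60, edgeR FDR = 0.00807) and Cxcl1, a neutrophil-attracting chemokine (-2.38 ± 0.53, edgeR FDR = 0.00111), with a list median of -2.38. Beside these short lists, 0.418% of all genes tested fell and 1.17% rose. The Ccl2 change reversed without B.g7 at 3 weeks, where a single cell held most of its UMIs. Cxcl1 was at 319 and 866 CPM at 3 weeks and 139 and 53.9 CPM at 25 weeks.

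Among the genes that rose, Ifi27l2a (chromosome 12, 103442167 to 103443680), an interferon-inducible gene, was at 133 and 601 CPM at 3 weeks and 1811 and 1490 CPM at 25 weeks in K/B.g7 and B.g7 (2.62 ± 0.48, edgeR FDR = 3.18e-05). It was seen in 13 of 14 and 8 of 10 cells at 25 weeks. The other fibroblasts were at 199 and 471 CPM and then at 1085 and 973 CPM. Snrpg, a core protein of the spliceosome, was at 140 and 178 CPM and then at 686 and 646 CPM (2.18 ± 0.46, edgeR FDR = 4.26e-04), and at 88.1 and 125 CPM and then 423 and 302 CPM in the other fibroblasts. Dync1i2, an intermediate chain of dynein, was at 67.7 and 85.9 CPM and then at 482 and 215 CPM (2.28 ± 0.50, edgeR FDR = 0.00111).

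Hist1h2ap, a replication-dependent histone gene with near-identical copies whose counts are uncertain, was at 201 and 271 CPM at 3 weeks and 1372 and 1068 CPM at 25 weeks (2.49 ± 0.45, edgeR FDR = 3.18e-05). Of 30 other G2 and M genes tested, 0 passed in either direction, with a median log2 fold change of -0.17. Some calls rested on few cells. At 25 weeks 1 cell held 82.3% (K/B.g7) and 59.8% (B.g7) of the UMIs of Prg4 (lubricin). Cytl1 UMIs came from 3 and 1 cells, and 78.4% of the Igfbp5 UMIs of K/B.g7 from 1 cell.

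**Figure D4:**
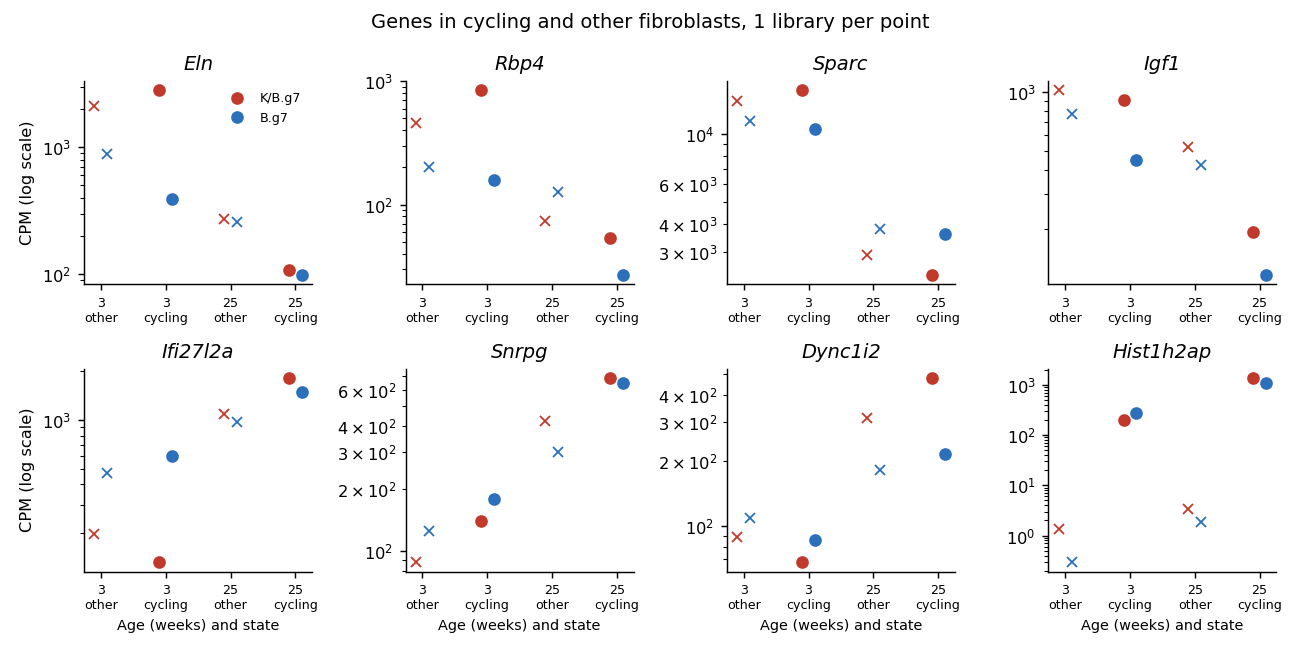
CPM on log axes of 8 genes in other (crosses) and cycling (circles) fibroblasts at 3 and 25 weeks, 1 point for each library, red for K/B.g7 and blue for B.g7. Eln, Rbp4, Sparc and Igf1 lie lower and Ifi27l2a, Snrpg and Dync1i2 higher at 25 weeks in cycling and in other fibroblasts, and Hist1h2ap lies at 0.29 to 3.39 CPM in the other fibroblasts.

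Between genotypes, the same 4 libraries gave 1 gene higher (0.0418%) and 1 lower (0.0418%) in cycling fibroblasts of K/B.g7 at an FDR of 0.05 in edgeR, with age as a block. Ccl2, the monocyte-attracting chemokine, was at 70.1 and 10.7 CPM in K/B.g7 and 727 and 135 CPM in B.g7 at 3 and 25 weeks (-3.35 ± 0.58, edgeR FDR = 2.50e-05). Single cells held 55.5 and 86.7% of the Ccl2 UMIs of B.g7. Cd200, a ligand that restrains myeloid cells, was at 172 and 118 CPM in K/B.g7 and 33.0 and 0 CPM in B.g7 (3.04 ± 0.73, edgeR FDR = 0.0366). With DESeq2, without the age block and without predicted doublets, 0 genes passed. The genotype effect itself differed between cycling and other fibroblasts in 15 of 12504 genes, higher in the cycling cells in 9 (0.072%) and lower in 6 (0.048%) at an FDR of 0.05 in edgeR. Ccl2 was among the lower ones (-3.79 ± 0.44, edgeR FDR = 2.29e-13). Markers of other cell types were among these calls: the mesothelial genes Msln, Gpm6a and Upk3b among the higher ones and the macrophage gene C1qa among the lower ones. Msln, Gpm6a and Upk3b had 13, 14 and 15 UMIs in the cycling fibroblasts of K/B.g7 at 25 weeks and 0 in those of B.g7 at that age, and all 9 mesothelial genes tested lay above 0. C1qa had 41 UMIs in the cycling fibroblasts of B.g7 at 3 weeks and 1 in those of K/B.g7. Their part in the other calls was not tested. With DESeq2 1 gene passed and without predicted doublets 2.

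At 3 weeks, with 1 library for each genotype and so no test, the cycling fibroblasts of K/B.g7 were higher in Eln (2826 CPM, exact Poisson 95% interval 2666 to 2992, against 390, 297 to 503). Rbp4 was at 846 CPM (760 to 939) against 159 (102 to 236), and Fbln5, which assembles elastic fibres, at 817 (732 to 909) against 159 (102 to 236). The intervals cover counting error alone. The other fibroblasts differed in the same direction by less, with Eln at 2121 and 894 CPM, Rbp4 at 459 and 201 CPM and Fbln5 at 546 and 266 CPM. The macrophage genes C1qa (271 CPM against 2.4) and C1qb (205 CPM against 0) were higher in the B.g7 cycling fibroblasts, and Serpine2, a protease inhibitor, was at 390 against 70.1 CPM.

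The planned fits for cycling leukocytes, and those for fibroblasts with at least 20 cells in a library, could not be made, because 20 cycling cells of either kind were present in both genotypes at 1 age alone. Cycling leukocytes are therefore described by library. Of cells led by T lineage genes, 0 of 23, 15 of 255 (5.88%) and 50 of 307 (16.3%) were cycling for K/B.g7 at 3, 8 and 25 weeks, and 0 of 8, 4 of 135 (2.96%) and 52 of 378 (13.8%) in B.g7. In both genotypes the 25-week library was the highest. Exact binomial 95% intervals were 3.33 to 9.52% and 12.3 to 20.9% at 8 and 25 weeks in K/B.g7 and 0.813 to 7.41% and 10.4 to 17.6% in B.g7.

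The cycling T lineage cells of 8 and 25 weeks differed in the genes of receptor rearrangement. At 25 weeks, 49 of 50 in K/B.g7 and 50 of 52 in B.g7 held a UMI of Rag1, Rag2, Dntt or Ptcra, the genes of receptor rearrangement in immature T cells. At 8 weeks 0 of 15 and 0 of 4 did. Dntt was seen in 41 of 50 and 47 of 52 cycling cells at 25 weeks, at 420 and 716 CPM against 185 and 638 CPM in the other T lineage cells. Rag1 was seen in 24 and 23 of them, at 181 and 109 CPM against 357 and 402 CPM. Of 9 thymocyte genes, 5 were lower and 2 higher in cycling than in other T lineage cells of both libraries, with a median log2 ratio of -0.36. Of all 3715 genes at 50 CPM or more, 1586 were lower and 1472 higher in both. Cd4 together with Cd8a or Cd8b1 was seen in 16 of 50 and 21 of 52. The T lineage list itself holds these genes, and the cycling cells were deeper than the rest of the T lineage (medians of 4116 and 5577 against 1124 and 1522 UMIs).

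Within the T lineage at 25 weeks, cells with such a UMI were cycling in 49 of 146 (33.6%, 26.0 to 41.8%) in K/B.g7 and 50 of 255 (19.6%, 14.9 to 25.0%) in B.g7. Cells without one were cycling in 1 of 161 (0.621%, 0.0157 to 3.41%) and 2 of 123 (1.63%, 0.198 to 5.75%). Median depths of the groups were close (1132 and 1557 UMIs with, 1387 and 1988 without). Among cells of at least 2000 UMIs thinned to that depth, 36 of 62 and 35 of 100 were cycling with such a UMI and 1 of 45 and 1 of 61 without. Predicted doublets were 10 of the 50 and 4 of the 52. Without cells that hold a UMI of these 4 genes, the mean thinned leukocyte share was 3.75% at 3 weeks and 2.5% later, so that the 3-week mean lay 1.25 percentage points above the later one in place of 3.99 below it. The 3-week mean rests on 3 of 40 leukocytes of K/B.g7 and 0 of 22 of B.g7. Whether these cells were in the valve was not tested.

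**Figure D5:**
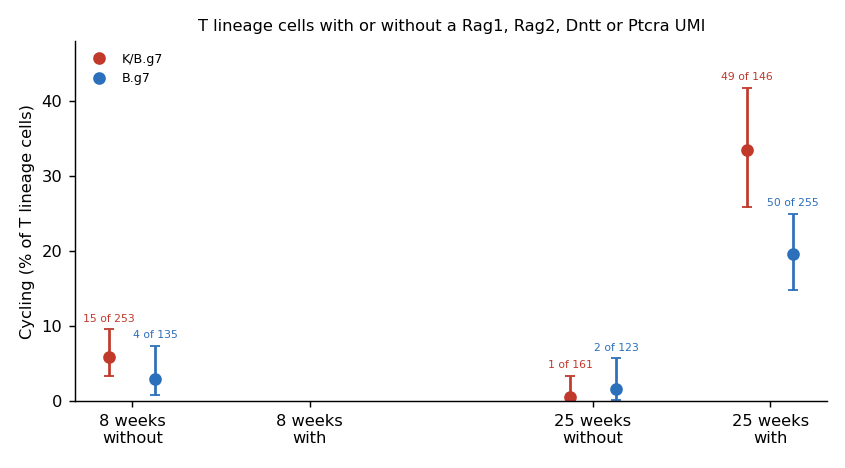
Share of T lineage cells that were cycling, in percent with exact binomial 95% intervals, for cells with and without a UMI of Rag1, Rag2, Dntt or Ptcra at 8 and 25 weeks (groups of under 20 cells are not drawn). Red is K/B.g7 and blue is B.g7, and the numbers give cycling cells of all cells. At 25 weeks the cells with such a UMI reach 33.6 and 19.6%, and at 8 weeks cells without it are at 5.93 and 2.96%.

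Beside the other T lineage cells of 25 weeks, the cells that cycled are again described without a test. The genes named next were among the 12 lowest by ratio. Of 3715 genes at 50 CPM or more, 8.08% were over 1 on the log2 scale in both libraries and 6.86% under -1. Ccl5, a chemokine of effector T cells, was at 0 and 537 CPM in cycling and 3641 and 2700 CPM in other T lineage cells of K/B.g7 and B.g7. All 207 Ccl5 UMIs of the cycling cells in B.g7 came from 1 cell. Il7r, the receptor for interleukin 7, was at 7.7 and 23.3 against 430 and 207 CPM. Cxcr6, a homing receptor of tissue T cells, had 0 UMIs in both against 166 and 156 CPM, and Rgs1 was at 0 and 5.2 against 294 and 311 CPM. Of 11 T cell genes, 7 were lower and 3 higher in both libraries, with a median log2 ratio of -0.48. Beside them, 1586 of the 3715 genes were lower and 1472 higher in both. Trbc2, of the T cell receptor beta chain, was one of the T cell genes that were higher, at 3370 and 4931 against 1775 and 4109 CPM.

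At 8 weeks Ccl5 was seen in 11 of 15 cycling T lineage cells of K/B.g7, at 3543 CPM, and in 115 of 240 other T lineage cells, at 6872 CPM. Trbv19, the mouse V beta 6 segment that the KRN receptor uses, was seen in 9 of 15 cycling and 61 of 240 other T lineage cells of K/B.g7, and in 0 of 4 and 26 of 131 cells of B.g7. The cycling cells of K/B.g7 had a median of 6341 UMIs and the others 2729, and a share of cells with a UMI rises with depth. In CPM the difference was small, with 132 in cycling and 104 in other cells of K/B.g7 and 66.3 in other cells of B.g7. At 25 weeks 0 cycling T lineage cells in either genotype had a Trbv19 UMI. Other T lineage cells of that age rarely had one either, with 2 of 257 in K/B.g7 and 4 of 326 in B.g7. Foxp3, the regulatory T cell factor, was seen in 2 of the 15 cycling cells of K/B.g7 and 1 of the 4 of B.g7.

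Cycling macrophage-led cells were 7 of 55 (12.7%), 9 of 223 (4.04%) and 3 of 67 (4.48%) in K/B.g7 and 1 of 31 (3.23%), 1 of 70 (1.43%) and 3 of 77 (3.90%) in B.g7 at 3, 8 and 25 weeks. K/B.g7 was the higher library at each age. All binomial intervals within an age overlapped, such as 5.27 to 24.5% and 0.0816 to 16.7% at 3 weeks. Dendritic-led cells were cycling in 5 of 33. B lineage cells, by contrast, were cycling in 3 of 459 (0.654%).

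Of the marker lists, the endothelial ones led in the largest number of cycling cells outside the fibroblasts at 3 weeks. In K/B.g7 at that age no list led in another 14 cycling cells. By share, some smaller groups of that library were higher, such as mesothelial (4 of 25) and macrophage-led cells (7 of 55). Endothelial cells were cycling in 14 of 334 (4.19%, 2.31 to 6.93%), 7 of 678 (1.03%, 0.416 to 2.12%) and 9 of 1276 (0.705%, 0.323 to 1.33%) in K/B.g7 at 3, 8 and 25 weeks. In B.g7 they were cycling in 21 of 168 (12.5%, 7.91 to 18.5%), 3 of 1286 (0.233%, 0.0481 to 0.680%) and 5 of 381 (1.31%, 0.427 to 3.04%). The 3-week libraries were the highest of each genotype, and at that age the interval of B.g7 lay above that of K/B.g7, with 1 library each and no test. Thinned to 2000 UMIs the 3-week shares were 2.75 and 7.63%. Cells with at least 2 of the lymphatic genes Prox1, Mmrn1 and Ccl21a were 3 of the 14 and 9 of the 21, and were cycling in 3 of 46 and 9 of 44 at 3 weeks and in 0 of 139, 2 of 321, 0 of 48 and 3 of 133 later.

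In B.g7 at 3 weeks, 12 of 14 genes of blood and valvular endothelium were lower in the 21 cycling endothelial cells than in the others. Of these, 4 were lower by over 1 on the log2 scale, and the list median was -0.87. Of all 3959 genes at 50 CPM or more, 1783 were lower. Cells with lymphatic genes were 9 of the 21 cycling and 44 of all 168 endothelial cells of this library, and their part in these values was not tested. The next 3 genes were among the 12 lowest by ratio of all genes. Npr3, the natriuretic peptide clearance receptor of valve endocardium, was at 7.7 CPM against 183 CPM in the 147 other endothelial cells. Wnt9b, a flow-induced ligand of valve endothelium, was at 7.7 against 250 CPM and Inhba, a subunit of activin, at 10.3 against 632 CPM. Mmrn1 and Reln, of lymphatic endothelium, were at 1274 and 317 CPM against 636 and 161 CPM. Among 3959 genes at 50 CPM or more, 3.13% were over 1 and 3.44% under -1 on the log2 scale in this library. In K/B.g7 the 14 cycling endothelial cells were at 226 CPM of Npr3 against 382 in the others, and the difference between the libraries was not tested.

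Cycling mesothelial cells, of the covering layer of the heart, were 4 of 25, 0 of 63 and 1 of 383 in K/B.g7 and 1 of 13, 3 of 233 and 4 of 457 in B.g7. Mural or smooth muscle cells were rarely cycling, at 2 of 473, 1 of 214 and 4 of 1388 in K/B.g7 and 2 of 177, 0 of 102 and 0 of 218 in B.g7. In K/B.g7 mesothelial cells the 3-week library was the highest, at 16.0% (4.54 to 36.1%).

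With all kinds summed, some gene levels of cycling cells differed between ages. At 8 and 25 weeks against 3 weeks, 34 of 8108 genes rose (0.419%) and 9 fell (0.111%) at an FDR of 0.05 in edgeR, with genotype in the model. The genes that rose were led by those of T cells: Cd3d was at 0 CPM in both 3-week libraries and at 281 and 251 CPM in K/B.g7 and 119 and 292 CPM in B.g7 at 8 and 25 weeks. Cldn5, the tight junction protein of endothelium, was at 98.7 and 515 CPM at 3 weeks and 0, 16.1, 0 and 95.2 CPM later, and Fabp4, a lipid carrier of capillary endothelium, at 1186 and 337 CPM and then 30.7, 28.7, 45.3 and 4.3 CPM. Eln fell by 3.24 ± 0.44 on the log2 scale (SE, edgeR FDR = 0.0379) and Igf1 by 2.64 ± 0.30 (SE, edgeR FDR = 0.0208). In bulk sums of this kind, a change in the share of a cell type and a change within its cells cannot be told apart. Without the 8-week libraries, 316 genes rose and 132 fell.

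Between genotypes, with age as a block, 0 of 8108 genes were higher (0%) and 0 lower (0%) at an FDR of 0.05 in edgeR, with 250 at an unadjusted p under 0.05 and 2 called by DESeq2. None of the 5 genes with the lowest p and a constant sign over ages passed. Ccl4, a chemokine of macrophages and T cells, was at 383, 426 and 69.9 CPM in K/B.g7 and 9.4, 17 and 15.1 CPM in B.g7 at 3, 8 and 25 weeks (3.97 ± 0.62, edgeR FDR = 0.646). Its groups did not overlap. Maf was at 57.6, 22.0 and 62.7 CPM against 270, 90.7 and 196 CPM (-1.92 ± 0.31, edgeR FDR = 0.646). Spp1 (osteopontin) was at 56.4, 281 and 21.5 CPM against 20.3, 102 and 4.3 CPM (1.67 ± 0.34, edgeR FDR = 0.95), and Prox1 and Myl9 completed the set with an edgeR FDR of 0.95 and 0.906. Without the 8-week libraries, 29 genes were higher and 38 lower.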

How the data were processed

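Live sorted cells of 6 mitral valve libraries were counted by the authors with Cell Ranger 3.1.0 on mm10, per the submitters' processing notes. The deposited values are whole-number UMI counts per gene and barcode, not normalized. The 6 libraries hold 243691001 UMIs in 58351 barcodes, and each was placed by genotype and age. From these counts, barcodes were filtered, members were found by the rule and, for shares, each cell was thinned to 2000 UMIs. Shares were compared by exact permutation over libraries. Summed counts were tested with edgeR 4.0.16 in R 4.3.3 (low counts filtered by filterByExpr, TMM scaling, quasi-likelihood F test) and, as an alternative, DESeq2 1.42.0. These fits, over all cycling cells and over fibroblasts with at least 10 cells a library, were added after the data were seen, as no planned fit had enough cells. SE is the fitted change over the square root of F. Doublets were marked with Scrublet in scanpy 1.11.5 at 0.8% per 1000 cells, since its automatic threshold marked 45 cells (0.0841%). Gene positions are from GENCODE M21 on GRCm38.

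In simulated counts with 200 changed genes, 4-fold changes were recovered in 55% of genes in the age comparison of cycling fibroblasts (2156 genes) and 35% in the genotype comparison (2130 genes), and 2-fold changes in 8% and 2%. Over all cycling cells, 4-fold changes were recovered in 44% (age, 7633 genes) and 65% (genotype, 7663 genes). Named genes are up to 10 in each direction of the largest change past an FDR of 0.05 with 1 sign in both genotypes or at all ages and at least 50 CPM, otherwise the 5 of smallest p. Cycling against other cells used up to 12 in each direction, and lists up to 4 members. The text gives part of these. The members and the gene lists were chosen with earlier results of these data known. Intervals and limits cover counting error alone.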

Additional observations from a re-analysis of the deposited data

Results flagged for a closer look

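The share of cycling cells among all cells at 8 and 25 weeks, with all UMIs, held 1 library far from the others. B.g7 at 25 weeks was at 1.04%, and its gap to the next library was 0.845 of the range of the 4 libraries, above the critical value of 0.829. With cells thinned to 2000 UMIs the ratio was 0.629, below it. Of 9 such sets of 4 libraries, 1 passed. Chance alone passes this test in a small share of sets.

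The genotype effect differed between cycling and other fibroblasts in 15 of 12504 genes at an FDR of 0.05 in edgeR, a test of the difference itself, with 9 genes higher (0.072%) and 6 lower (0.048%) in the cycling cells. Of the higher genes 3 are mesothelial markers (Msln, Gpm6a and Upk3b) and of the lower ones C1qa is a macrophage marker, and their part in the other calls was not tested. Ccl2 (-3.79 ± 0.44, log2 ± SE, edgeR FDR = 2.29e-13) and Apod, a lipid-binding lipocalin (-4.16 ± 0.65, edgeR FDR = 7.48e-07), kept their calls without predicted doublets, as the 2 genes then called. That fit holds 2 cycling fibroblasts of K/B.g7 at 25 weeks. FDR values here rest mostly on variance shared over genes, as in the other fits of these libraries. Single cells held most of the Ccl2 UMIs in the cycling fibroblasts of B.g7 at both ages. In B.g7 at 3 weeks 1 cycling cell held 95% of the Apod UMIs. Npy (neuropeptide Y) was at -2.52 ± 0.42 (edgeR FDR = 3.15e-06), with its UMIs in 2 of 10 cycling cells of B.g7 at 25 weeks. Igfbp5, an insulin-like growth factor binding protein, was at 2.52 ± 0.39 (edgeR FDR = 7.48e-07) and at 0.12 without predicted doublets. Nr4a3, an orphan nuclear receptor, was at 3.41 ± 0.76 (edgeR FDR = 0.00880).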

How the results depend on the processing

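In percentage points, the cycling share of all cells in K/B.g7 less B.g7 (-0.0363) turned to 0.351 in cells with Xist and no Ddx3y UMI, 0.0337 without cells with a Rag1, Rag2, Dntt or Ptcra UMI and 0.152 without the 25-week libraries, and ranged from -0.299 to 0.127 with each library left out in turn. For fibroblasts (0.129) it was -0.0221 with a 2% fibroblast level and ranged from -0.172 to 0.288. For others (-0.675) it was 0.0276 in cells with Xist and no Ddx3y UMI, 0.00569 with the 2% level and ranged from -1.39 to 0.0697. Leukocytes among cycling cells (8.90) ranged from -5.19 to 23.8. Leukocytes by age (-3.99) turned to 1.25 without cells with a Rag1, Rag2, Dntt or Ptcra UMI. The age differences of all cells, fibroblasts and others kept their direction in all of their 17, 19 and 20 alternatives. The cause of these changes was not tested. With age as a replicate block, the share differences of -0.0363, 0.129, 3.63, -0.675 and 8.90 for all cells, fibroblasts, leukocytes, others and leukocytes among cycling cells gave exact sign-flip permutation p of 1.0, 0.750, 0.250, 0.50 and 0.750, where 0.250 is the smallest possible.

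Counts of genes at an FDR of 0.05 moved more. Over all cycling cells, genotype gave 0 genes, 2 with DESeq2, 112 without the filter on low counts and 0 to 67 with each age left out; age gave 43, then 183, 629 and 50 to 448. In cycling fibroblasts, genotype gave 2 genes, 0 with DESeq2, 14 without the filter, 0 with no replicate block, 0 without predicted doublets and 3 to 71 with each library left out (61 without K/B.g7 at 3 weeks). Age gave 38, 12 with DESeq2, 0 without predicted doublets and 21 to 163. The difference of genotype effects gave 15, 1 with DESeq2, 2 without predicted doublets and 8 to 20. Of the named genes' alternatives, 266 kept direction and call, 94 lost the call, 10 gained it and 2 reversed: Ccl2 by age (0.13 without B.g7 at 3 weeks) and Npy in the difference of genotype effects (2.22 without B.g7 at 25 weeks). With 3 libraries the lone one is assumed to vary like the others. The number of cycling cells, 3 to 53 fibroblasts a library, limits each gene comparison.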
